A study of Mus musculus with 12 samples.

Results

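Tight, gap and desmosomal junction genes were followed through peroxide exposure of mouse neural precursor cells. The members were taken by gene symbol: numbered claudins (Cldn), zonula occludens scaffolds (Tjp), connexins (Gja to Gjd), pannexins (Panx), keratins (Krt), desmogleins and desmocollins (Dsg, Dsc), plakophilins (Pkp), PAR polarity proteins (Pard3, Pard6) and MARVEL-domain proteins, plus Dsp, Jup, Ocln, F11r, Jam2, Jam3, Plec and Dst. Cldn11, Gja1 and Gjb6 were left out by the rule. Described here are 31 members among the 15478 genes of the authors' deposited table. With them, 137 protein-coding mouse genes of RefSeq were matched by symbol, of which 32 were in the table and 105 were not. The member row Cldn34c1,Cldn34c2 is a pair of near-identical genes counted together, so that row is uncertain.

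The cells were primary neural precursor cells (NPC) from adult female C57BL/6 mice aged 5 to 12 weeks, cultured and then exposed. A set of 4 samples received 100 µM H2O2 for 1 h, 4 received 100 µM H2O2 for 8 h, and 4 were sham-treated with PBS. All 3 groups came from each of 4 animals, and poly-A RNA was sequenced. The sources used here do not say when the PBS cells were collected, so hours in culture and peroxide cannot be told apart. Since the files carry only test results, with no value of a single sample, per-sample levels, depth and the samples left out as outliers are unknown, and n per group is at most 4. A change of RNA in these bulk cultures does not separate fewer cells of a type from less RNA per cell, which cannot be told apart.

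Tight junctions seal neighbouring cells with strands of claudins and other membrane proteins, which ZO scaffolds tie to the actin cytoskeleton. Gap junctions are channels of connexins that let ions and small molecules pass between cells, and in the brain different connexins serve astrocytes, oligodendrocytes and neurons. Desmosomes anchor intermediate filaments at the cell surface through plakins such as desmoplakin, and in epithelia those filaments are keratins. Neural precursors use junctional scaffolds and PAR proteins to set up apical and basal sides, and gap junctions to couple with one another.

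The stretches before the starts of 4 members are shown because the members carry the main patterns: Cldn15 and Gjd2 had the largest called changes among the members at 1 h and 8 h, and Tjp1 and Gjc3 are abundant members called in each direction at 8 h. The rise of Tjp1 at 8 h was small, at 0.07 on the log2 scale in the authors' deposited table. Each is the 250 bases before the RefSeq start (GRCm38.p6), written along the gene's own strand. Cldn15 lies at chr5:136967619-136967868 (plus strand), Tjp1 at chr7:65371245-65371494 (minus strand), Gjd2 at chr2:114013620-114013869 (minus strand) and Gjc3 at chr5:137963099-137963348 (minus strand). Capitals mark matches, on either strand, to AP-1 (TGANTCA), CRE (TGACGTCA), the core of the antioxidant response element (TGACNNNGC), the E-box CACGTG, the GC box GGGCGG and the SOX motif ACAAAG.
Cldn15: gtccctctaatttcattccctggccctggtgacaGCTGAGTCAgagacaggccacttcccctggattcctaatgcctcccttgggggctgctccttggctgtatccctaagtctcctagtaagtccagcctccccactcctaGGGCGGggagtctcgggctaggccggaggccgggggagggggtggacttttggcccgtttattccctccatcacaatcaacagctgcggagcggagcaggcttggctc
Tjp1: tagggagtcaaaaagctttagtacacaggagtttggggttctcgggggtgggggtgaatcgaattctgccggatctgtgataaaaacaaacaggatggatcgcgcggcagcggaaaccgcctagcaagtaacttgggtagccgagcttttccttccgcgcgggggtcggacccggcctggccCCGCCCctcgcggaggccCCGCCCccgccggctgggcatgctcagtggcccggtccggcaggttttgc
Gjd2: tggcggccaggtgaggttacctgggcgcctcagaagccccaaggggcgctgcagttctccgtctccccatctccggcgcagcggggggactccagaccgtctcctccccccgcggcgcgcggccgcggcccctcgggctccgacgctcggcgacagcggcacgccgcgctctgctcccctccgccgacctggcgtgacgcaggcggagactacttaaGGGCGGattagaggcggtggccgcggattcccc
Gjc3: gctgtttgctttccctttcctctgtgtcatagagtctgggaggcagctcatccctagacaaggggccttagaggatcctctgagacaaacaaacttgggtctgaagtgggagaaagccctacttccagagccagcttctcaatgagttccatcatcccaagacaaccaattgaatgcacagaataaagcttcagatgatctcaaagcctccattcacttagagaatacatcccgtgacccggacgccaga

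In the Cldn15 stretch an AP-1 match began at base -214 and lay inside the antioxidant response element match that began at base -216, counted back from the start, and a GC box began at -108. The Tjp1 stretch held GC boxes at -68 and -50, the Gjd2 stretch held a GC box at -33, and the Gjc3 stretch held no match. Among 32851 RefSeq promoter stretches of the same length, 6.75% held the AP-1 letters, 10.2% the antioxidant response element core, 32.7% the GC box, 16.5% the SOX motif, 6.02% the E-box and 1.55% the CRE. Promoter entries were found for 20 members, with 30 stretches in all, and only that of Cldn15 held the AP-1 letters, while 14 of the 30 held a GC box. In GENCODE release M21 (GRCm38) the whole genes lie as Cldn15 (ENSMUSG00000001739) at chr5:136966616-136975858, Tjp1 (ENSMUSG00000030516) at chr7:65296165-65527781, Gjd2 (ENSMUSG00000068615) at chr2:114009601-114013619 and Gjc3 (ENSMUSG00000056966) at chr5:137953461-137963098. The Tjp1 and Cldn15 stretches lie inside these bounds, so the RefSeq starts used for them are internal to the GENCODE genes. Members on chromosome 18 were not searched. A match describes these letters and is not a measured binding site.

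A gene is called risen or fallen here where its Benjamini-Hochberg adjusted p over all 15478 genes, from the authors' edgeR likelihood ratio test, was below 0.05. Errors are standard errors implied by each deposited fold change and its likelihood ratio, on the log2 scale. At 1 h of H2O2 against PBS, 5 members rose and 8 fell in the authors' deposited table, where 20.5% of all genes rose and 22.2% fell, and the members' shares were 16.1% and 25.8%. At 8 h against PBS, 11 members rose and 8 fell in the authors' deposited table, where 27.4% of all genes rose and 28.2% fell, and the members' shares were 35.5% and 25.8%. For 8 h against 1 h, 9 members rose and 13 fell in the authors' deposited table, a share of 29.0% and 41.9%, beside 30.3% and 32.4% of all genes. The shares are a description and were not tested against those of all genes. The median log2 fold change of the 31 members in the authors' deposited table was 0.06 at 1 h (all genes 0.0125), 0.13 at 8 h (all genes 0.0054) and -0.06 between 8 h and 1 h (all genes -0.0143). A call in at least 1 comparison was made for 25 members, and 6 had none. By family, claudins were called against PBS only at 1 h, desmosomal genes mostly at 8 h, plakins and the ZO scaffold Tjp1 in opposite directions at the 2 times, and all 4 connexin members were lower at 8 h than at 1 h, Gjb1 without a call in the voom table.

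**Figure D1:**
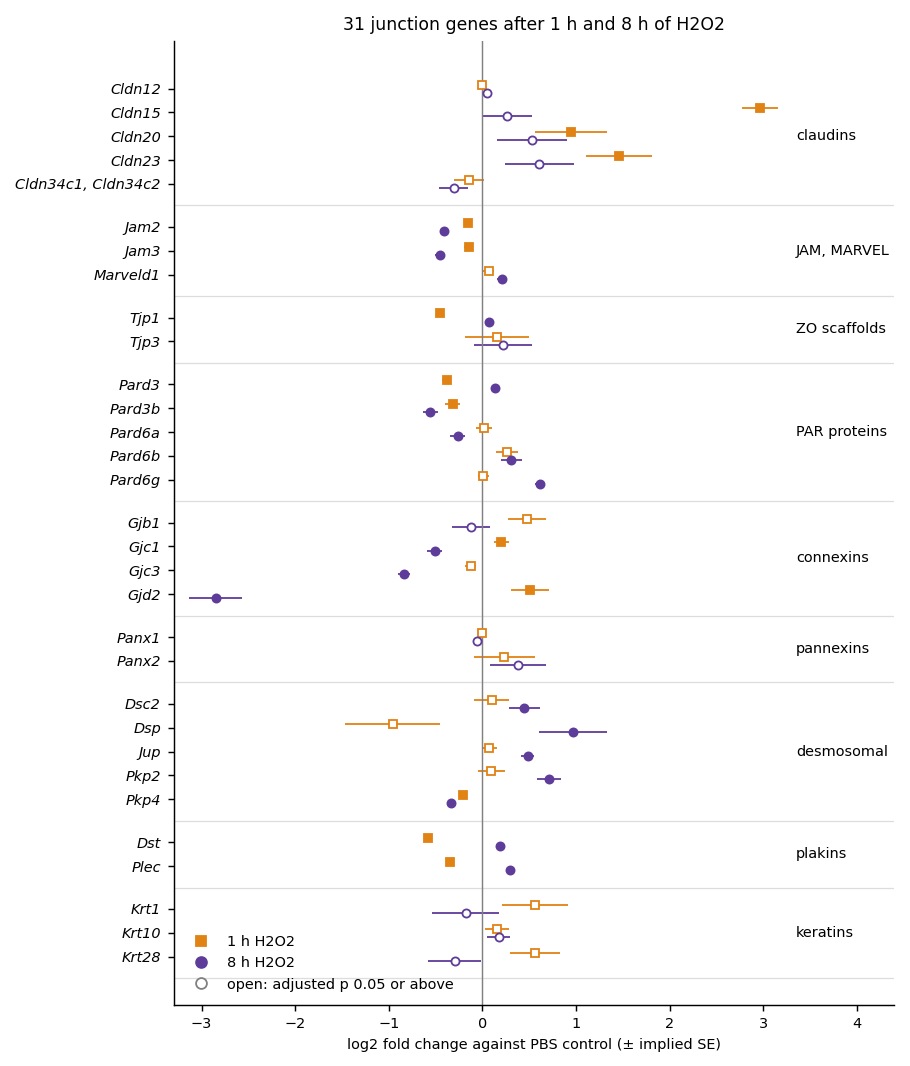
Log2 fold change against PBS control (x axis) of the 31 members, by family (rows), after 1 h (orange squares) and 8 h (purple circles) of H2O2. Points are the authors' deposited values, bars are the implied standard error, and open symbols have an adjusted p of 0.05 or above. Cldn15 stands at 2.96 at 1 h and Gjd2 at -2.85 at 8 h.

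Levels were compared per length of exon, as mean log2 CPM per kb (log2 of counts scaled to library size, per kilobase) over all samples of the authors' deposited table. The most abundant members were Cldn12 at 4.90, Tjp1 at 4.83, Jam2 at 4.74 and Jam3 at 4.43 log2 CPM per kb. Gjc3 followed at 4.15, then Plec at 4.00 and Panx1 at 3.96. Thus a tight junction scaffold, adhesion molecules, a plakin, 1 claudin, 1 connexin and 1 pannexin made up the upper end, and desmoplakin (Dsp) stood last at -4.06 log2 CPM per kb. No spread over samples can be given, so neighbours in this order cannot be separated. A mean below 1 log2 CPM was found for 8 members: Cldn20, Cldn23, Gjd2, Dsp, Tjp3, Krt1, Krt28 and Panx2.

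**Figure D2:**
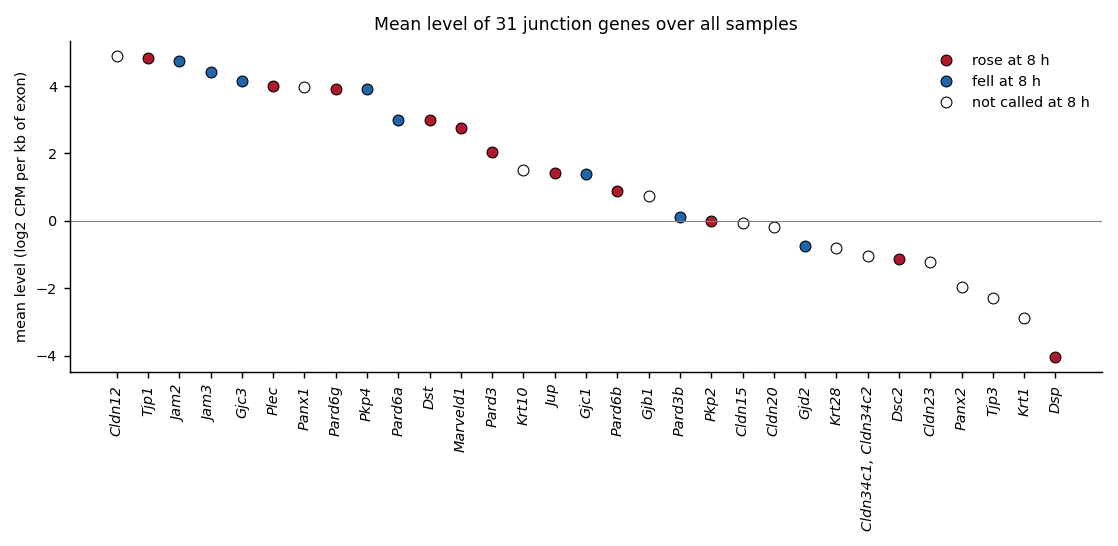
Mean level of the 31 members over all samples (y axis, log2 CPM per kb of exon), in falling order, from the authors' deposited mean and exon length. Fill shows the call at 8 h against control: red rose, blue fell, white not called. Members that rose run from Tjp1 at 4.83 to Dsp at -4.06, and members that fell from Jam2 at 4.74 to Gjd2 at -0.74.

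Among claudins, Cldn15, which forms cation-selective pores in the gut, rose against PBS at 1 h only. Its log2 fold change in the authors' deposited table was 2.96 ± 0.20 at 1 h (7.79-fold, adjusted p = 1.5e-49) and 0.26 ± 0.27 at 8 h (adjusted p = 0.427), and the direct contrast of 8 h with 1 h was -2.70 ± 0.17 (adjusted p = 3.5e-53). Cldn15 was thus the member with the largest rise, and its mean level over all samples in that deposited table was low, at 1.04 log2 CPM. Cldn23, of lower mean level still, rose by 1.46 ± 0.36 at 1 h (2.75-fold, adjusted p = 2.0e-04), stood at 0.61 ± 0.37 at 8 h (adjusted p = 0.151) and at -0.85 ± 0.31 for 8 h against 1 h (adjusted p = 0.0125), all in the authors' deposited table. Cldn20 also rose at 1 h, by 0.95, in the authors' deposited table, a call that the voom table did not make (adjusted p = 0.0512). The other claudin rows, Cldn12 and Cldn34c1,Cldn34c2, were called in no comparison.

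Cldn12 stood first in mean level per kb of exon, in an order whose neighbours cannot be separated. Its values, singled out after they were seen, kept within narrow limits. Its log2 fold changes in the authors' deposited table had 95% intervals of -0.07 to 0.07 at 1 h and -0.01 to 0.12 at 8 h. On the strand of Cldn15 and upstream of it, Fis1, a mitochondrial outer membrane gene, ends 381 bases before the GENCODE start of Cldn15 and 1634 bases before the RefSeq start. Fis1, with a mean of 6.88 log2 CPM, rose by 0.13 at 1 h (adjusted p = 0.0017) in the authors' deposited table, beside 2.96 for Cldn15. For 8 h against 1 h Fis1 stood at -0.15 (adjusted p = 1.1e-04) there. The part of Fis1 in the Cldn15 value was not tested. Cldn20 is a 0.66 kb gene that lies wholly within Tfb1m on the other strand and 1.21 kb downstream of Tiam2. In the authors' deposited table Tiam2 stood at -0.60 and Tfb1m at -0.02 at 1 h. The mean of Tiam2 was 6.61 log2 CPM there, beside -0.78 for Cldn20. The part of these 2 genes in the Cldn20 value was not tested. The sources used here do not give the strand setting of the counting, so reads of overlapping genes cannot be told apart.

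Markers of other cell types were read beside the claudins, and the epithelial and endothelial ones had low means. Of all genes in the authors' deposited table, 20.5% rose at 1 h, and the marker counts were not tested against that share. Foxj1 (ependymal) had a mean of 5.00 and Otx2 (choroid plexus) of 2.28 log2 CPM in the authors' deposited table. The other ependymal markers had means between -0.51 and 0.11 log2 CPM there. Epcam, the 1 epithelial marker of 5 in the table, had a mean of -1.30 log2 CPM in the authors' deposited table and was called in neither comparison with PBS, and Cdh1, Esrp1, Esrp2 and Grhl2 had no row. Of 5 endothelial markers 3 were in the authors' deposited table, at means between -1.23 and 0.02 log2 CPM, and 2 of them rose at 1 h, Esam by 1.77 and Pecam1 by 1.18, and none was called at 8 h. Of 4 microglial markers 2 were in the authors' deposited table, and at 1 h Csf1r rose by 1.34 (adjusted p = 9.9e-04) while P2ry12 was not called at 0.42. Of 5 ependymal markers 4 were in the authors' deposited table, and at 1 h Foxj1 rose by 0.32 (adjusted p = 8.7e-06) and Ak7 by 1.46 (adjusted p = 1.8e-04), with Ccdc153 and Rsph1 not called. Otx2, the 1 choroid plexus marker of 5, and Col1a1, the 1 meningeal and fibroblast marker of 4, were not called at 1 h in the authors' deposited table. The part of these cell types in the claudin values was not tested.

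The membrane adhesion molecules Jam2 and Jam3, of the immunoglobulin superfamily, fell at both times, more at 8 h. Jam2 fell by 0.15 ± 0.037 at 1 h (adjusted p = 2.0e-04), by 0.41 ± 0.037 at 8 h (adjusted p = 1.0e-28) and by 0.26 ± 0.037 for 8 h against 1 h (adjusted p = 6.5e-12) in the authors' deposited table. For Jam3 there were, in the authors' deposited table, -0.15 ± 0.051 at 1 h (adjusted p = 0.0105), -0.45 ± 0.050 at 8 h (adjusted p = 7.3e-19) and -0.31 ± 0.051 for 8 h against 1 h (adjusted p = 5.9e-09). Marveld1, a MARVEL-domain protein, went the other way at 8 h. Its log2 fold change in the authors' deposited table was 0.06 ± 0.059 at 1 h (adjusted p = 0.392), 0.21 ± 0.055 at 8 h (adjusted p = 3.4e-04) and 0.15 ± 0.055 for 8 h against 1 h (adjusted p = 0.0152). Jam3 overlaps Gm48796 on the other strand by 3.79 kb, which stood at 0.79 at 1 h and -1.08 at 8 h in the authors' deposited table.

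The ZO scaffold Tjp1, which binds claudins and actin, fell at 1 h and rose slightly at 8 h. Tjp1 fell by 0.45 ± 0.035 at 1 h (0.732-fold, adjusted p = 2.8e-35), stood at 0.07 ± 0.034 at 8 h (adjusted p = 0.0492) and rose by 0.52 ± 0.035 for 8 h against 1 h (adjusted p = 5.0e-50) in the authors' deposited table. The rise of Tjp1 at 8 h over PBS was small, at 1.05-fold in the authors' deposited table. It lost its call once all fold changes were recentred on the median of all genes (adjusted p = 0.070, normal test with the implied standard error). The voom table kept the call (adjusted p = 0.030). Less the median of genes of like span, which was -0.15, the 8 h value was 0.22 (adjusted p = 4.4e-10, same normal test), a gain by arithmetic. Tjp3 had a mean below 1 log2 CPM and was called in no comparison.

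PAR proteins work with atypical protein kinase C to set cell polarity, and the 5 members did not move as a block. Pard3, the scaffold of the complex, fell by 0.38 ± 0.046 at 1 h (adjusted p = 5.4e-15), rose by 0.13 ± 0.043 at 8 h (adjusted p = 0.00572) and rose by 0.51 ± 0.045 for 8 h against 1 h (adjusted p = 7.1e-29) in the authors' deposited table. Its paralogue Pard3b fell throughout, by 0.32 ± 0.081 at 1 h (adjusted p = 3.8e-04), 0.56 ± 0.078 at 8 h (adjusted p = 6.5e-12) and 0.24 ± 0.083 for 8 h against 1 h (adjusted p = 0.00752) in the authors' deposited table. The Pard6 adaptors, which join Pard3 to the kinase, differed among themselves at 8 h. Pard6g stood at 0.01 ± 0.060 at 1 h (adjusted p = 0.918), rose by 0.61 ± 0.056 at 8 h (1.53-fold, adjusted p = 4.1e-27) and by 0.60 ± 0.056 for 8 h against 1 h (adjusted p = 8.5e-26) in the authors' deposited table. For Pard6b the authors' deposited table gave 0.26 ± 0.12 at 1 h (adjusted p = 0.0626), 0.31 ± 0.11 at 8 h (adjusted p = 0.0104) and 0.05 ± 0.11 for 8 h against 1 h (adjusted p = 0.713). Pard6a stood at 0.02 ± 0.085 at 1 h (adjusted p = 0.903), fell by 0.27 ± 0.082 at 8 h (adjusted p = 0.00309) and fell by 0.28 ± 0.084 for 8 h against 1 h (adjusted p = 0.00175) in the authors' deposited table. Pard6g and Pard6b were therefore higher at 8 h than in PBS, and Pard6a lower, without a test of 1 paralogue against another.

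All 4 connexin members were called lower at 8 h than at 1 h, Gjb1 in the GLM table alone. A fall for 8 h against 1 h was called for 32.4% of all genes in the authors' deposited table. The connexin count was not tested against that share. Gjd2, which forms the gap junctions of neuronal electrical synapses, rose by 0.51 ± 0.20 at 1 h (adjusted p = 0.0320), fell by 2.85 ± 0.28 at 8 h (0.139-fold, adjusted p = 1.1e-22) and fell by 3.36 ± 0.27 for 8 h against 1 h (0.0973-fold, adjusted p = 7.2e-34) in the authors' deposited table. This was the largest change of any member in either direction for 8 h against 1 h, in a gene with a mean of 0.78 log2 CPM in that deposited table. The 1 h call was near the threshold and was not made in the voom table (adjusted p = 0.0520).

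Gjc1, a connexin best known from heart and vascular muscle, followed the same order with a higher mean level. It rose by 0.20 ± 0.079 at 1 h (adjusted p = 0.0270), fell by 0.51 ± 0.080 at 8 h (adjusted p = 1.1e-09) and fell by 0.71 ± 0.080 for 8 h against 1 h (adjusted p = 3.9e-18) in the authors' deposited table. Gjc3, found in myelinating glia, was the most abundant connexin member, at -0.13 ± 0.063 at 1 h (adjusted p = 0.0924), and it fell by 0.83 ± 0.064 at 8 h (0.561-fold, adjusted p = 1.5e-37) and by 0.71 ± 0.064 for 8 h against 1 h (adjusted p = 6.2e-27) in the authors' deposited table. Gjb1, a connexin of oligodendrocytes, had 0.47 ± 0.21 at 1 h (adjusted p = 0.0502), -0.12 ± 0.20 at 8 h (adjusted p = 0.644) and -0.59 ± 0.20 for 8 h against 1 h (adjusted p = 0.00611) in the authors' deposited table, the last of which was not called in the voom table (adjusted p = 0.143). Of the genes left out by the rule, Gja1, the main astrocyte connexin, rose by 0.26 at 1 h and 1.12 at 8 h, Cldn11, a claudin of myelin, stood at 0.07 at 1 h and fell by 0.90 at 8 h, and Gjb6 had no row in the authors' deposited table.

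Markers of neural cell types were read beside the connexins. Of all genes in the authors' deposited table, 22.2% fell at 1 h, and 27.4% rose and 28.2% fell at 8 h. Of 8 oligodendrocyte lineage markers, all were in the authors' deposited table, with means between 1.43 and 10.4 log2 CPM, and at 8 h 7 fell, with a median of -0.78 and Pdgfra lowest at -2.89, while Cspg4 was not called at 0.09, and Gjc3 fell while Gjb1 was not called. At 1 h 4 of these 8 fell and 4 were not called in the authors' deposited table, where Gjb1 and Gjc3 were not called either. Of 5 neuronal markers, all in the authors' deposited table, 4 fell at 8 h and Tubb3 was not called, and Rbfox3 was lowest at -2.39, beside -2.85 for Gjd2. Of 6 astrocyte markers 5 fell at 8 h in the authors' deposited table, with a median of -0.43, whereas Gja1 rose by 1.12. No list of muscle markers was read for Gjc1. The 8 neural precursor markers were present at means between 3.33 and 12.0 log2 CPM in the authors' deposited table, and 3 rose and 3 fell at 8 h. The part of these cell types in the connexin values was not tested. Gjd2 also overlaps A530058N18Rik on the other strand by 0.018 kb, and that gene stood at -3.11 at 8 h in the authors' deposited table.

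Pannexins form large membrane channels and, unlike connexins, are not known to pair across cells. Neither was called in any comparison. Panx1, abundant and singled out after its values were seen, had 95% intervals in the authors' deposited table of -0.09 to 0.08 at 1 h and -0.14 to 0.02 at 8 h.

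The desmosomal genes were mostly uncalled at 1 h, and 4 of 5 rose at 8 h, Dsp without a call in the voom table. A rise at 8 h was called for 27.4% of all genes in the authors' deposited table. The count of this family was not tested against that share. Pkp2, a plaque protein, stood at 0.10 ± 0.14 at 1 h (adjusted p = 0.630), rose by 0.71 ± 0.13 at 8 h (1.64-fold, adjusted p = 1.0e-07) and rose by 0.62 ± 0.13 for 8 h against 1 h (adjusted p = 5.2e-06) in the authors' deposited table. Jup, or plakoglobin, which serves both desmosomes and adherens junctions, stood at 0.07 ± 0.078 at 1 h (adjusted p = 0.481), rose by 0.48 ± 0.070 at 8 h (1.40-fold, adjusted p = 4.0e-11) and rose by 0.41 ± 0.071 for 8 h against 1 h (adjusted p = 3.2e-08) in the authors' deposited table. Dsc2, a desmosomal cadherin, had 0.10 ± 0.19 at 1 h (adjusted p = 0.715), 0.45 ± 0.17 at 8 h (adjusted p = 0.0162) and 0.35 ± 0.17 for 8 h against 1 h (adjusted p = 0.0632) in the authors' deposited table. These 3 genes shared a rise over PBS at 8 h with no call at 1 h. Beside them, the ependymal markers Foxj1 and Ccdc153 rose by 0.78 (adjusted p = 1.4e-35) and 2.23 (adjusted p = 5.9e-11) at 8 h in the authors' deposited table, and Ak7 and Rsph1 were not called. The choroid plexus marker Otx2 rose by 0.44 at 8 h (adjusted p = 8.8e-04) in the authors' deposited table, and Col1a1, Csf1r, P2ry12 and Epcam were not called. Their part in the desmosomal values was not tested.

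Dsp, the desmoplakin that ties the plaque to intermediate filaments, had the widest errors of the family. The authors' deposited table gave -0.96 ± 0.51 at 1 h (adjusted p = 0.116), 0.97 ± 0.36 at 8 h (1.95-fold, adjusted p = 0.0166) and 1.92 ± 0.44 for 8 h against 1 h (3.80-fold, adjusted p = 2.7e-05). Its rise over PBS at 8 h was not called in the voom table (adjusted p = 0.141), and its mean was -0.78 log2 CPM in that deposited table. Pkp4, which is related to the plakophilins and also found at adherens junctions, fell instead, with a 1 h sign that turned once the median of genes of like span was taken away. It fell by 0.21 ± 0.041 at 1 h (adjusted p = 1.6e-06), 0.34 ± 0.039 at 8 h (adjusted p = 6.0e-17) and 0.13 ± 0.040 for 8 h against 1 h (adjusted p = 0.00308) in the authors' deposited table. The desmogleins, Dsc1, Dsc3, Pkp1 and Pkp3 had no row in the table.

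The plakins Dst and Plec, giant linkers between intermediate filaments, actin, microtubules and hemidesmosomes, fell at 1 h and rose at 8 h. Dst fell by 0.58 ± 0.039 at 1 h (0.669-fold, adjusted p = 7.0e-48), rose by 0.19 ± 0.038 at 8 h (1.14-fold, adjusted p = 2.7e-06) and rose by 0.77 ± 0.039 for 8 h against 1 h (adjusted p = 4.8e-86) in the authors' deposited table. Plec fell by 0.35 ± 0.042 at 1 h (0.785-fold, adjusted p = 1.2e-15), rose by 0.30 ± 0.041 at 8 h (1.23-fold, adjusted p = 1.5e-12) and rose by 0.65 ± 0.041 for 8 h against 1 h (adjusted p = 5.1e-54) in the authors' deposited table. Both are among the more abundant members per kb of exon, and Dst overlaps Gm26788 on the other strand by 12.6 kb.

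Few keratins were measured. RefSeq lists 53 keratin genes by this rule, and 3 were in the table: Krt1, Krt10 and Krt28. None of the 3 was called against PBS at either time in the authors' deposited table, with log2 fold changes between 0.15 and 0.56 at 1 h and between -0.29 and 0.17 at 8 h. Krt1 and Krt28, both of low mean level, were called lower at 8 h than at 1 h, Krt1 (adjusted p = 0.0456) without a call in the voom table (adjusted p = 0.0691).

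**Figure D3:**
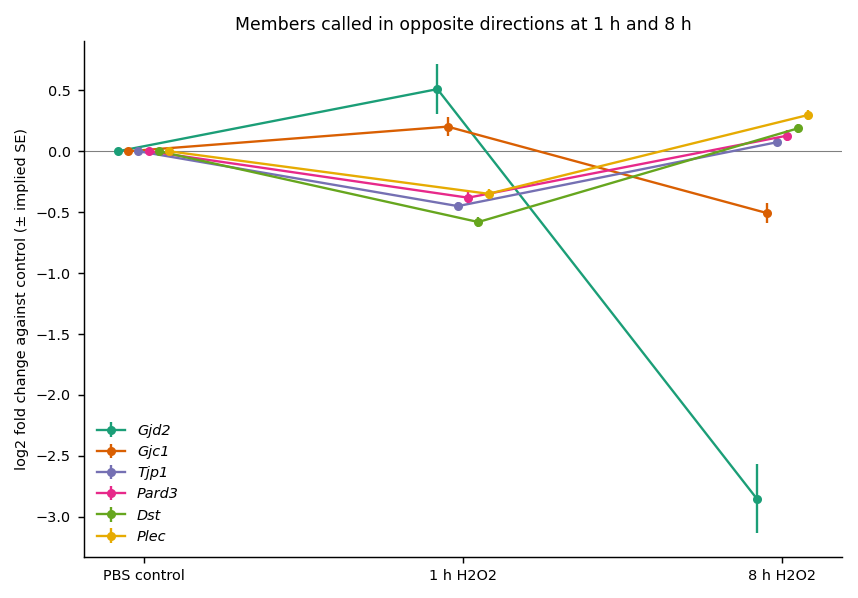
Log2 fold change against PBS control (y axis, ± implied standard error) at 1 h and 8 h of H2O2 for the 6 members called in opposite directions at the 2 times, with control set to 0. Points are shifted sideways a little so that bars stay visible. Gjd2 and Gjc1 are above 0 at 1 h and below at 8 h, and Tjp1, Pard3, Dst and Plec the reverse.

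The 6 members in the plot of opposite directions were called at 1 h and, with the other sign, at 8 h. Tjp1, Pard3, Dst and Plec fell and then rose, as 5.69% of all genes did in the authors' deposited table, and Gjc1 and Gjd2 rose and then fell, as 4% of all genes did. Both comparisons use the same PBS samples. The deposited value of 8 h against 1 h is the difference of the values against PBS, so for members chosen by opposite calls it is a description and no further test.

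The genomic span of a gene, from first to last annotated base (GENCODE release M21, GRCm38), was a property the rule did not use. The 8 members that fell at 1 h spanned 51.8 to 1003 kb, with a median of 213 kb, and the 5 that rose spanned 0.66 to 20.1 kb, with a median of 4.02 kb, so the spans did not overlap. The 18 members not called at 1 h spanned 2.35 to 85.3 kb, and the median of all genes was 20.9 kb. Over all genes the same order held at 1 h: the median log2 fold change in the authors' deposited table was 0.16 in the shortest and -0.26 in the longest of 10 equal groups of genes by span. At 8 h those medians in the authors' deposited table were 0.07 and -0.15. The group of longest genes holds 5 members, namely Dst, Tjp1, Pard3, Pard3b and Pkp4.

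The span groups that hold the 8 fallers had negative 1 h medians, of -0.06 and -0.26 in the authors' deposited table. Subtracting the median of its own span group therefore raises the value of each faller by arithmetic. Calls after the subtraction rest on a normal test with the implied standard error, adjusted by Benjamini-Hochberg, and not on the likelihood ratio test. Less that median, 1 h log2 fold changes computed from the authors' deposited table were -0.32 for Dst, -0.28 for Plec, -0.19 for Tjp1 and -0.12 for Pard3, all still called, and Pard3b, Jam2 and Jam3 lost their calls. Pkp4 changed sign to 0.047 (adjusted p = 0.39). Called falls were then 5 in place of 8, with Gjc3 at -0.20 newly called (adjusted p = 0.0068). Called rises were 3 in place of 5: Gjc1 (adjusted p = 0.13), Gjd2 (adjusted p = 0.12) and Cldn20 lost their calls, while Pard6g, at 0.16 (adjusted p = 0.028), was called. At 8 h no member named with values turned its sign or lost its call in this way. The part of span in these results was not tested.

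**Figure D4:**
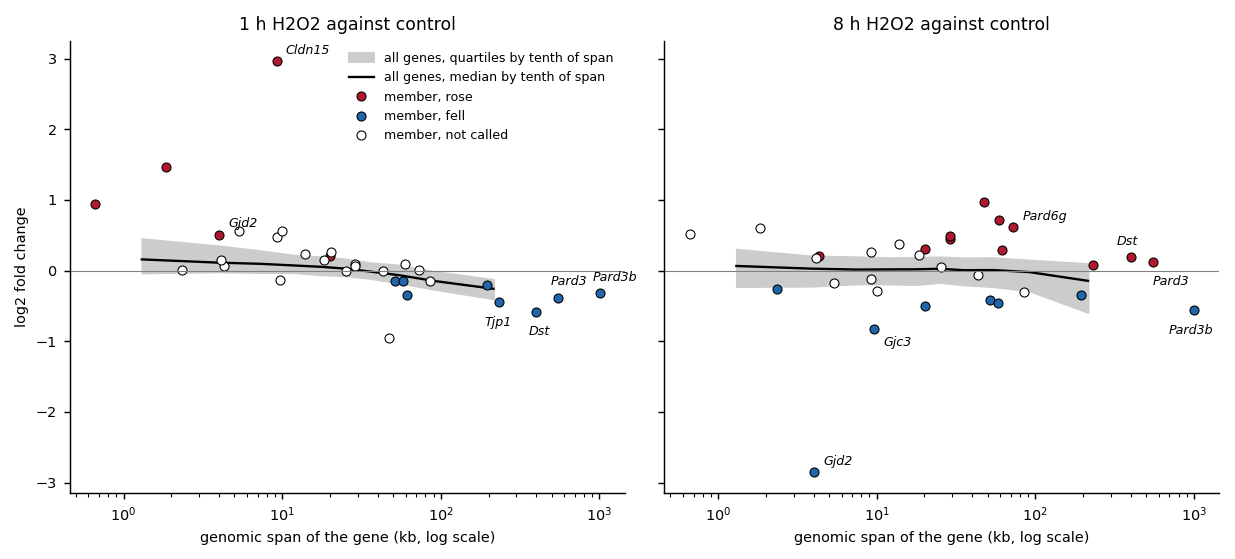
Log2 fold change against PBS control (y axis) by genomic span (x axis, kb, log scale) at 1 h (left) and 8 h (right) of H2O2, from the authors' deposited table. The black line and grey band are the median and quartiles of all genes in 10 groups by span, and points are the 31 members, red where they rose, blue where they fell and white where not called. At 1 h the band runs downhill from a median of 0.16 to -0.26, and every blue point lies at 51.8 kb or more.

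Other genes of the junction system were read from 5 lists of 75 genes, 60 of them in the table. Their counts stand beside all genes of the authors' deposited table, where 20.5% rose and 22.2% fell at 1 h. At 8 h 27.4% of all genes rose and 28.2% fell there. The counts of the 5 lists were not tested against these shares. Of 24 tight junction partners in the authors' deposited table, 4 rose and 13 fell at 1 h and 7 rose and 12 fell at 8 h, with medians of -0.15 and -0.09. Cgnl1 (paracingulin), a plaque protein, fell by 0.49 at 1 h (adjusted p = 3.0e-06) and rose by 0.91 at 8 h (adjusted p = 1.5e-27) in the authors' deposited table, and the adhesion receptor Cxadr fell by 0.30 (adjusted p = 4.0e-11) and rose by 0.23 (adjusted p = 5.4e-08) there. The multi-PDZ scaffolds Mpdz and Magi2 fell at both times, by 0.42 (adjusted p = 1.9e-18) and 0.31 (adjusted p = 1.0e-08) at 1 h and by 0.58 (adjusted p = 1.3e-37) and 0.65 (adjusted p = 6.7e-37) at 8 h in the authors' deposited table. Less the median of genes of like span, the 1 h value of Magi2 was -0.057 and no longer called (adjusted p = 0.41). These tight junction partners were thus called in both directions at 8 h.

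Of 12 adherens plaque and nectin genes in the authors' deposited table, 2 rose and 7 fell at 1 h, and 7 rose and 4 fell at 8 h. Ctnna2, the neural alpha-catenin, stood at -0.03 at 1 h (adjusted p = 0.688) and fell by 1.66 at 8 h (adjusted p = 7.2e-143) in the authors' deposited table. Its widely expressed relative Ctnna1 fell by 0.14 at 1 h (adjusted p = 1.8e-04) and rose by 0.20 at 8 h (adjusted p = 2.5e-09), and the actin linker Afdn fell by 0.27 (adjusted p = 6.0e-10) and rose by 0.12 (adjusted p = 0.00290) in the authors' deposited table. Nectin1, an adhesion molecule, rose at both times, and the authors' deposited table gave 0.21 (adjusted p = 0.00594) and 0.59 (adjusted p = 6.1e-20). Less the median of genes of like span, the 1 h value of Ctnna1 turned to 0.12 (adjusted p = 0.0024) and that of Ctnna2 to 0.22 (adjusted p = 0.0010), and that of Afdn, at -0.012, was no longer called (adjusted p = 0.86). At 8 h Ctnna2 and Ctnna1 stood on opposite sides of PBS, also under that subtraction.

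Among 7 hemidesmosome and plakin partners in the authors' deposited table, 1 rose and 2 fell at 1 h, while at 8 h 4 rose and 3 were not called, around a median of 0.39. Perp, a desmosomal membrane protein known as a target of p53, stood at 0.11 at 1 h (adjusted p = 0.563) and rose by 2.38 at 8 h (adjusted p = 1.0e-111) in the authors' deposited table, and the tetraspanin Cd151 stood at 0.08 (adjusted p = 0.0871) and rose by 0.86 (adjusted p = 2.5e-130). The plakin Macf1 fell by 0.53 at 1 h (adjusted p = 3.1e-43) and stood at -0.06 at 8 h (adjusted p = 0.165), and the laminin receptor subunit Itga6 fell by 0.31 (adjusted p = 5.2e-12) and rose by 0.25 (adjusted p = 8.3e-09) in the authors' deposited table. Macf1 and Itga6 thus fell at 1 h as Dst and Plec did, and Perp had the largest rise named here at 8 h among desmosomal proteins.

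Of 7 transcription factors known for epithelial junction genes, 5 rose and 2 fell at 1 h, while 3 rose and 2 fell at 8 h, in the authors' deposited table. Klf4 rose by 1.50 at 1 h (adjusted p = 5.2e-127) and 0.83 at 8 h (adjusted p = 2.3e-39), and Grhl3 by 1.66 (adjusted p = 4.9e-09) and 3.27 (adjusted p = 9.1e-54), in the authors' deposited table. The repressors Zeb1 and Zeb2 of that list fell at both times, by 0.41 (adjusted p = 7.7e-32) and 0.48 (adjusted p = 6.3e-22) at 1 h and by 0.30 (adjusted p = 1.6e-18) and 0.51 (adjusted p = 1.9e-26) at 8 h in the authors' deposited table. Snai1, another repressor on the list and named after its values were seen, went the other way at 1 h, where it rose by 1.72 (adjusted p = 1.4e-05), and stood at -0.33 at 8 h (adjusted p = 0.536), with a mean of -0.58 log2 CPM in the authors' deposited table.

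Among 10 intermediate filament genes other than keratins, 6 rose and 2 fell at 1 h, and 6 rose and 4 fell at 8 h, in the authors' deposited table. Synm (synemin) rose by 0.79 at 1 h (adjusted p = 4.3e-08) and 2.13 at 8 h (adjusted p = 3.6e-86), and the nuclear lamin Lmna by 0.46 (adjusted p = 2.2e-32) and 1.00 (adjusted p = 8.4e-162), in the authors' deposited table. Lmnb1, a B-type lamin, rose by 0.11 at 1 h (adjusted p = 0.0109) and fell by 1.19 at 8 h (adjusted p = 1.4e-210), and the neuronal filament Ina rose by 0.26 (adjusted p = 0.00964) and fell by 1.72 (adjusted p = 3.3e-64) in the authors' deposited table. Less the median of genes of like span, the 1 h rise of Ina was no longer called (adjusted p = 0.082). The list includes the nuclear lamins Lmna, Lmnb1 and Lmnb2, which are not cytoplasmic filaments. Of its cytoplasmic filament genes, named after their values were seen, Synm, Nes, Vim, Nefl and Nefm rose at 8 h and Ina and Gfap fell in the authors' deposited table.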

How the data were processed

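RNA of neural precursor cells was measured in 12 samples, 4 in each of 3 groups. Gene counts came from featureCounts and were tested by the authors in edgeR's GLM pipeline (tagwise dispersion, likelihood ratio test), per the file headers. The same headers describe another table, from voom and limma. Genome build GRCm38 and the tools edgeR and limma are named in the submitters' processing notes. Log2 values were deposited for fold changes and, as log2 CPM, for each gene's mean. The authors' likelihood ratio is a score. For each test the authors give a p-value, raw and adjusted by Benjamini-Hochberg. Exon length and the authors' calls are other deposited columns. The deposited tables are named as filtered and with outlier samples removed. Which samples those were, the aligner, annotation release, tool versions, depth and design formula were not found in the sources used here. There were 0 columns with per-sample values, so the count test planned for such values was not run and the authors' GLM table was used as deposited.

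The implied standard error was computed as the size of the log2 fold change over the square root of its likelihood ratio, and 95% intervals are 1.96 of these to each side. Its median ratio to the voom standard error over all genes was between 1.0 and 1.06 in the 3 comparisons. Spans came from GENCODE release M21 (15469 of 15478 genes matched), promoters from RefSeq. Computations used Python 3.11.15, pandas 2.3.3, numpy 2.4.6 and matplotlib 3.10.9, and the scripts were tested on simulated data. A small number of genes that the symbol rule matches (2) are not reported here and enter no count, median or figure of the members. Members and lists were chosen with earlier results of these data known. Values in all 3 comparisons are given for members called in at least 1 comparison with a mean of at least 1 log2 CPM, and for called members below that mean with an absolute log2 fold change of at least 1. Of each other list the 4 genes with the smallest adjusted p in any comparison are given. Alternatives were the voom table, recentring on the median of all genes, a mean of at least 1 log2 CPM, an adjusted p below 0.01, an absolute log2 fold change of at least 0.5 and, chosen after seeing the data, subtraction of the median of the gene's span group (10 groups). After recentring or that subtraction, p came from a normal test, in both directions, of the shifted value over the implied standard error. It was adjusted by Benjamini-Hochberg over all genes, with the subtracted median taken as fixed.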

Additional observations from a re-analysis of the deposited data

Results flagged for a closer look

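For 6 members the calls against PBS had opposite directions at 1 h and 8 h, and the authors' comparison of 8 h with 1 h was called as well. That comparison equals the difference of the values by which these members were picked, so it is a description and no independent test. The 8 h value over the 1 h value, as log2 fold change in the authors' deposited table, was 0.51 for Pard3, 0.52 for Tjp1, 0.77 for Dst and 0.65 for Plec, which fell at 1 h and rose at 8 h. It was -0.71 for Gjc1 and -3.36 for Gjd2, which rose at 1 h and fell at 8 h, in the same deposited table. The 1 h calls of Gjc1 and Gjd2 were lost once the median of genes of like span was taken away, and the part of span was not tested. The 1 h call of Gjd2 was also not made in the voom table (adjusted p = 0.052), and the 8 h rise of Tjp1, at 0.07, lost its call on recentring (adjusted p = 0.070). That rise of Tjp1 kept its call in the voom table (adjusted p = 0.030) and less the median of genes of like span (0.22, adjusted p = 4.4e-10). The 4 genes with a positive value span 61.6 to 548 kb and the 2 with a negative value 4.02 and 20.1 kb. Over all genes of the authors' deposited table, the median of 8 h against 1 h was -0.09 in the shortest and 0.08 in the longest of 10 groups by span. Spans of all genes with such opposite calls were not computed.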

How the results depend on the processing

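No paired analysis was possible because the deposited files hold no value of a single sample, and leaving out a replicate in turn was not run for the same reason. Members rising at 1 h numbered 5, and 3 in the voom table, 2 among members with a mean of at least 1 log2 CPM, 2 at an adjusted p below 0.01 and 3 after the median of the gene's span group was taken away, an alternative chosen after seeing the data. Members falling at 1 h numbered 8, and 1 at an absolute log2 fold change of at least 0.5 and 5 after the span group's median was taken away. Members rising at 8 h numbered 11, and 7 at an adjusted p below 0.01. With the size threshold of 0.5, 3 rose and 4 fell at 8 h, in place of 11 and 8, and 8 fell for 8 h against 1 h in place of 13. At 1 h the span alternative turned the sign of Marveld1 to -0.049, Pard6a to -0.14 and Pkp4 to 0.047, and recentring turned Pard6g to -0.0033. For genes of the other lists the span alternative turned Ctnna1 to 0.12, Ctnna2 to 0.22 and Cd151 to -0.038 at 1 h and Macf1 to 0.086 at 8 h, and 35 of 42 named values kept direction and side, as did 42 in the voom table and 42 after recentring. Of 66 named values of members, 63 kept their direction and side of the threshold in the voom table, 64 after recentring and 56 after the span alternative. The cause of these changes was not tested. With no depth per sample, what depth limits is unknown, and 8 members had a mean below 1 log2 CPM, where errors were widest. The samples left out by the authors, the collection time of the PBS cells and the strand setting of the counting limit every comparison.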
